A study of Homo sapiens with 6 samples.

Results

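Genes that act in mitosis, in the spindle checkpoint and in condensin were followed in 786-O, an established line of human clear cell kidney cancer that lacks functional VHL. The members were taken from a list of 58 gene symbols, and a gene entered when the array's annotation gave at least 1 probe set with that symbol alone. Of the listed genes, 57 were found among the 18132 genes tested. The remaining one, PTTG1, was not analysed here because its probe set also carries the symbol of a pseudogene. Single-colour Affymetrix arrays were hybridised with RNA of 786-O cells that had received, by lentivirus, an shRNA against PLEKHO1 (shPLEKHO1, 3 arrays), or of the control cells that the labels call shNC (3 arrays). An shRNA is a short hairpin RNA that leads to the degradation of matching transcripts. The labels use 1 treatment text for both groups and do not say separately what the shNC cells received. The whole comparison rests on 1 cell line, and the sources used here state neither the number of hairpins nor their sequences or the time after infection.

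Mitosis separates the duplicated chromosomes into daughter cells. CDK1 with cyclin B starts it, condensin and topoisomerase II shape the chromosomes, and kinetochores tie them to the spindle. The spindle checkpoint holds CDC20, an activator of the anaphase-promoting complex, until every chromosome is attached, and separase then cuts cohesin, the ring that holds sister chromatids together. Many of these genes are transcribed mainly in G2 and mitosis, under MYBL2, FOXM1 and the MuvB proteins, and in tumours their transcripts are widely used as proliferation markers. In a culture of mixed cell cycle phases, fewer cells in G2 and mitosis and less RNA per such cell cannot be told apart.

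Array brightness was close throughout, with median intensities of 55.70 to 56.74 in shPLEKHO1 and 55.97 to 57.06 in shNC. Separate cultures are not mentioned in the labels for the replicates, so p-values measure the spread between arrays, which may be technical. Each difference is the mean of log2(intensity + 1) in shPLEKHO1 less that in shNC, ± SE (n = 3 arrays in either group), and the words rose, fell and changed are used only for an adjusted p under 0.05 in limma over all 18132 genes. Values per array are deposited intensities, in array units, in the order of replicates 1, 2 and 3. The targeted gene, PLEKHO1, read 110.3, 116 and 97.4 in shPLEKHO1, against 135, 143 and 126 in shNC. It fell by 19.9% (-0.32 ± 0.08, adjusted p = 0.0123), with groups that did not overlap. The exact two-sided permutation test of 3 against 3 arrays gave p = 0.1, the smallest p this design allows. Of 7 renal markers tested, 3 fell (PAX8, PAX2 and CDH6), 2 rose (KRT8 and KRT18), and VIM and VEGFA did not pass; PAX2 was the dimmest, at means of 108 in shPLEKHO1 and 136 in shNC, and CA9 was not analysed here. Of 14 leukocyte, endothelial and fibroblast markers, 1 rose (LUM, mean intensity 45.8 in shPLEKHO1 and 25.7 in shNC) and 0 fell, and their mean intensities lay between 6.39 and 146. Summed over each list, leukocyte markers read 257 to 287 in shPLEKHO1 and 239 to 265 in shNC, endothelial markers 176 to 190.2 in shPLEKHO1 and 176 to 209 in shNC, and fibroblast markers 159 to 193 in shPLEKHO1 and 149 to 162 in shNC. No marker read 0 on any array, and their part in the results was not tested.

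Of the 57 mitotic genes, 21 fell, 10 rose and 26 did not pass the test. Among all genes tested, 16% fell and 18.1% rose, 34.1% in all, while 36.8% of the mitotic genes fell and 17.5% rose. All 57 read brighter than the median gene, where changes are easier to call, and among the 9057 genes above that median 25.5% fell, 29.8% rose and 55.3% changed. The share of mitotic genes that changed, 54.4%, was thus near that of other bright genes, and the share of falls was above it and that of rises below it. Counts by role below rest on few genes and are to be read beside these shares. The median log2 difference of the mitotic genes was -0.06, against 0.01 for all genes. Changes were small. Only TOP2A and SMC2 passed 1.5-fold, 3.51% of the mitotic genes, against 7.21% of all genes (4.04% fell and 3.17% rose) and 12% of those above the median. Both of these genes fell. In all 31 mitotic genes that changed, the 3 arrays of 1 group lay entirely below or above those of the other. Nearly all genes tested that changed showed this too, 2871 of 2895 that fell and 3256 of 3284 that rose. Over the whole list the groups did not overlap in 36 of 57 genes, 23 lower and 13 higher with shPLEKHO1, where 43.1% of all genes tested did so (19.7% lower, 23.4% higher). The 63.2% of mitotic genes without overlap lay near the 66.3% of all genes above the median brightness.

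**Figure D1:**
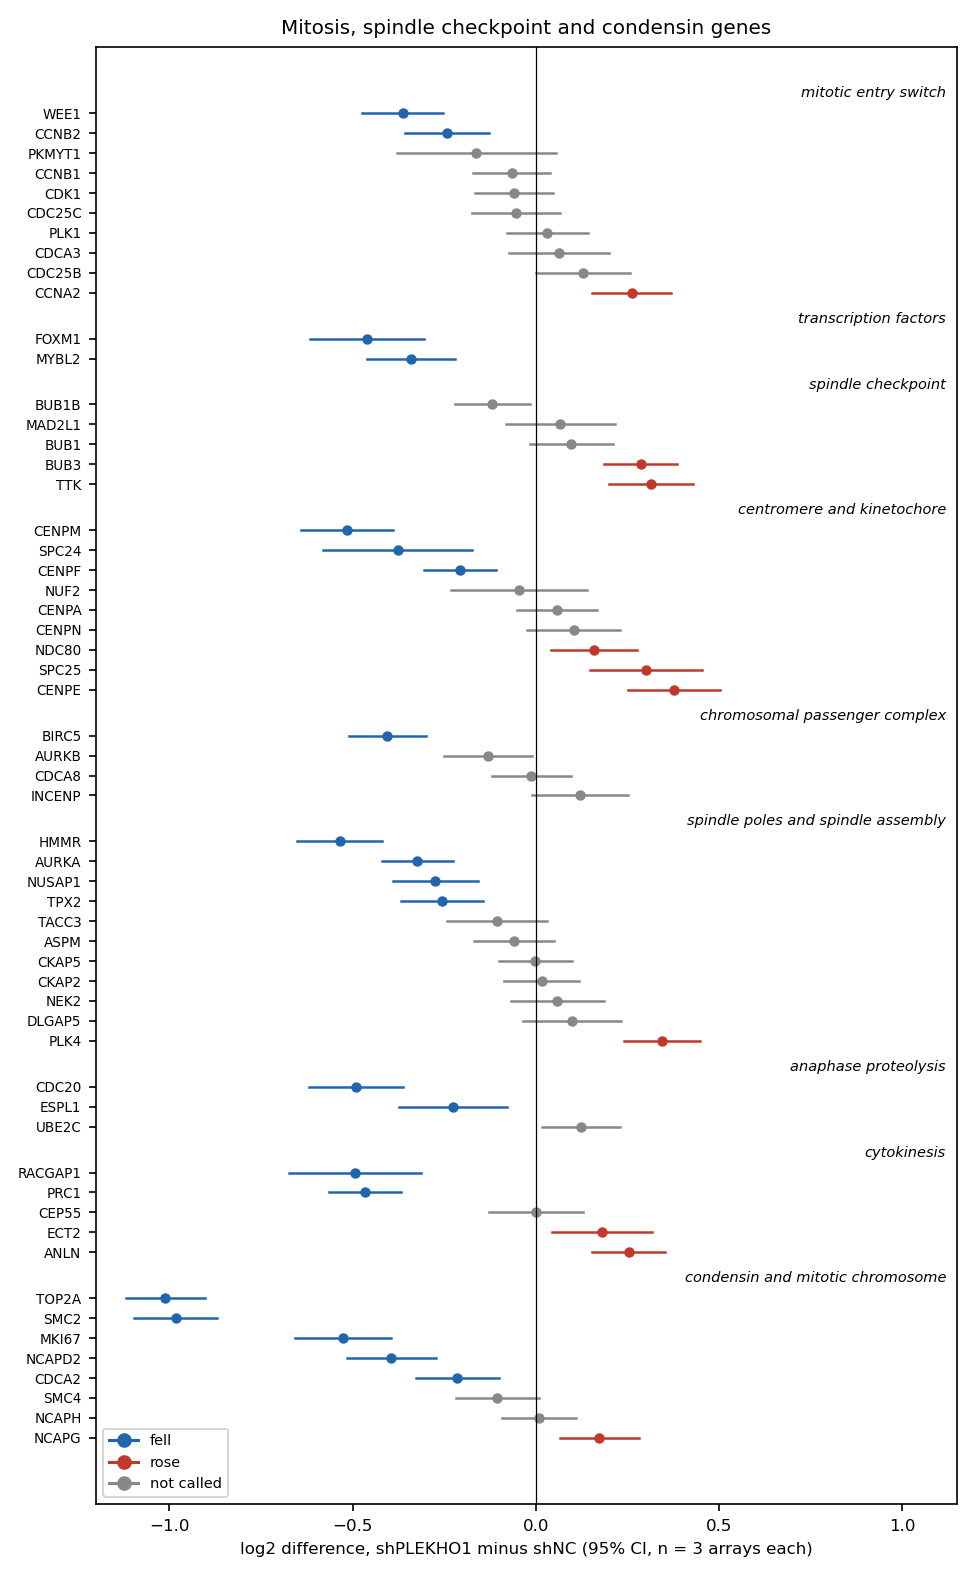
Log2 difference of each of the 57 genes, shPLEKHO1 minus shNC (horizontal axis), by role (blocks), with 95% confidence intervals of the limma fit from 3 arrays per group. Blue points fell, red points rose and grey points did not pass an adjusted p under 0.05. TOP2A (-1.01) and SMC2 (-0.98) lie apart on the left, and the largest rise is CENPE (0.38).

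The largest falls were in genes that shape mitotic chromosomes. TOP2A, the topoisomerase II that untangles sister chromatids, read 1885, 1852 and 1855 in shPLEKHO1, against 3748, 3775 and 3703 in shNC. TOP2A was 2.02-fold lower with little scatter in either group (-1.01 ± 0.05, adjusted p = 4.45e-06). SMC2, an ATPase of the condensin core, read 261, 268 and 279 in shPLEKHO1, against 563, 530.4 and 516 in shNC. The groups were again far apart (1.98-fold lower, -0.98 ± 0.05, adjusted p = 6.22e-06), and all 7 SMC2 probe sets fell. MKI67, the Ki-67 protein that coats mitotic chromosomes, read 849, 875 and 856 in shPLEKHO1, against 1389, 1180.4 and 1165 in shNC. It fell by 0.53 on the log2 scale (SE 0.06, adjusted p = 0.000225), although shNC replicate 1 stood above the other control arrays, and all 6 of its probe sets fell. CDCA2, also called Repo-Man, which targets protein phosphatase 1 to chromatin, fell less (-0.21 ± 0.05, adjusted p = 0.0106), with 237, 251 and 249 in shPLEKHO1 and 283, 290.5 and 288 in shNC.

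The subunits of condensin did not move as 1 block. SMC4, which pairs with SMC2 in every condensin complex, read 2178, 2137 and 2061 in shPLEKHO1, against 2320.5, 2339 and 2191 in shNC. The SMC4 groups did not overlap, shPLEKHO1 being lower. The difference did not pass (-0.10 ± 0.05, adjusted p = 0.149), with a 95% interval from -0.22 to 0.01 that lies above the interval of SMC2 (-1.10 to -0.87). Of the 4 SMC4 probe sets 1 fell, and the mean of all was at -0.10 (adjusted p = 0.0689). NCAPD2, a HEAT-repeat subunit of condensin I, fell, with 505, 577 and 535 in shPLEKHO1 and 749.5, 681 and 688 in shNC (-0.39 ± 0.05, adjusted p = 0.000689), in both of its probe sets. NCAPH, the kleisin that bridges the SMC heads, read 361, 365 and 356 in shPLEKHO1 and 363, 353 and 363 in shNC, with overlapping groups (0.01 ± 0.04, 95% interval -0.09 to 0.11). The mean of its 3 probe sets was at -0.12 and passed (adjusted p = 0.035). The NCAPH probe sets that were not read were dim, with mean intensities of 12.8 and 12.1 in shPLEKHO1 and 14.3 and 14.1 in shNC. NCAPG, the other HEAT-repeat subunit of condensin I, rose slightly, with 840.4, 837 and 822 in shPLEKHO1 and 791, 714 and 709.8 in shNC (0.17 ± 0.05, adjusted p = 0.0219). That call was lost in 8 of 15 alternative settings, among them the mean of its 2 probe sets, which was at -0.05 (adjusted p = 0.703). Of the condensin II subunits, which are not on the list of 58, NCAPG2 fell (-0.45 ± 0.06, adjusted p = 0.000503; 3 of 5 probe sets fell and their mean was at -0.19), and NCAPD3 (-0.06 ± 0.05) and NCAPH2 (0.10 ± 0.07) did not pass. The mean of the 2 NCAPH2 probe sets, at 0.15, did (adjusted p = 0.0457).

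**Figure D2:**
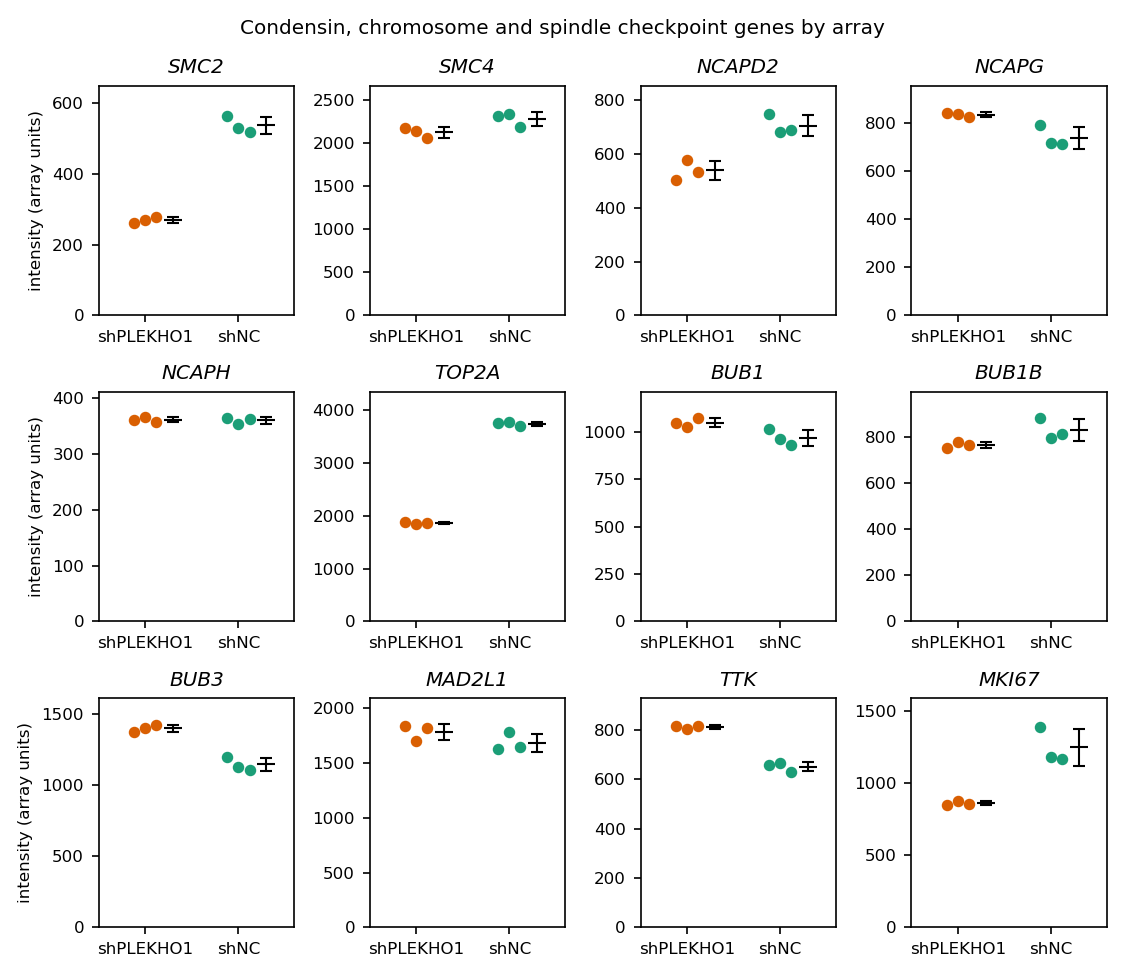
Deposited intensity (vertical axes, array units, from 0) of 12 condensin, chromosome and spindle checkpoint genes on each array, shPLEKHO1 left and shNC right in each panel. Points are single arrays, and the bars beside them are the mean ± SD of 3 arrays. The groups are widely separated for TOP2A (1852 to 1885 in shPLEKHO1, 3703 to 3775 in shNC) and SMC2, and overlap for NCAPH and MAD2L1.

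Promoters of mitotic genes are known for a pair of short elements, the CHR (TTTGAA), which the MuvB proteins bind, and the CCAAT box, which NF-Y binds. Both were searched on both strands in the 250 bases before the most upstream transcription start that RefSeq lists for a gene (GRCh38.p14). Such a window was read for 45 of the 57 genes, not for WEE1, PKMYT1, FOXM1, BUB3, TTK, CENPM, BIRC5, AURKA, TPX2, UBE2C, RACGAP1 and CDCA2. The windows of the 3 largest falls and the 2 largest rises are shown, 5′ to 3′ along the gene's strand, because they set the genes that moved furthest in each direction side by side. Capitals mark CHR and CCAAT matches, which read TTCAAA and ATTGG on the other strand. The windows lie upstream of the start of TOP2A at chr17:40417897-40418146 on the minus strand, SMC2 at chr9:104094059-104094308 on the plus strand, HMMR at chr5:163460382-163460631 on the plus strand, CENPE at chr4:103198344-103198593 on the minus strand, and PLK4 at chr4:127880643-127880892 on the plus strand.
TOP2A: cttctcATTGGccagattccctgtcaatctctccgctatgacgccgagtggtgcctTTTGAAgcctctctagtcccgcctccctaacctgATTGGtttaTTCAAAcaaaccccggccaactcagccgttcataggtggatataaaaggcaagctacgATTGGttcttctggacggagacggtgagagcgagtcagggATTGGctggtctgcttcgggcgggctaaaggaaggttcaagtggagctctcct
SMC2: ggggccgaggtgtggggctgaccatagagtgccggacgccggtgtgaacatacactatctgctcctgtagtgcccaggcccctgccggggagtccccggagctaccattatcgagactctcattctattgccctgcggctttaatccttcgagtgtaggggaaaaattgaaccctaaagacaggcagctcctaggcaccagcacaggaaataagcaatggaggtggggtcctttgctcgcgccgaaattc
HMMR: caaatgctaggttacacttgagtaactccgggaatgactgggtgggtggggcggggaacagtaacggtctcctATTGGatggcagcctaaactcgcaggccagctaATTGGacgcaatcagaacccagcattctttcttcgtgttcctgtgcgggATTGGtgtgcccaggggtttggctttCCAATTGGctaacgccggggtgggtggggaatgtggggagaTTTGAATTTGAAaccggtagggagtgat
CENPE: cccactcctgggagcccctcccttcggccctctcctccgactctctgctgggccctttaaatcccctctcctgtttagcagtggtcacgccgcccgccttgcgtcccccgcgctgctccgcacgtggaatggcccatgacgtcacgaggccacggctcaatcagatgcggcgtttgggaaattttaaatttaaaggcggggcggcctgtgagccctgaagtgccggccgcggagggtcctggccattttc
PLK4: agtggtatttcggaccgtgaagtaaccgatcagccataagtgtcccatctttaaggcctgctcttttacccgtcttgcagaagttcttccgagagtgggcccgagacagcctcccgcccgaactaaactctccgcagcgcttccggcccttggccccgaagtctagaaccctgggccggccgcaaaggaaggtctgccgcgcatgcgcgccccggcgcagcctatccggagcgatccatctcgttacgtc

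The TOP2A window held 2 CHR and 4 CCAAT matches. The HMMR window held 2 CHR matches, which begin 28 and 22 bases before the start, and 5 CCAAT matches, of which 1 pair overlaps within CCAATTGG. The windows of SMC2, CENPE and PLK4 held neither word. Bases after the start, other starts of a gene and elements with other letters were not searched, so these genes may still carry such elements. Among the genes with a window, a CHR was found in 8 of 13 that fell, 4 of 8 that rose and 11 of 24 that did not pass, and at least 1 CCAAT box in 11, 3 and 17 of them. Both words occurred together in 8 of the 13 genes that fell, in 2 of the 8 that rose and in 9 of the 24 others. Over all 27305 promoters of 1 start per gene, 13.6% held a CHR, 33% a CCAAT box and 4.87% both. For the 14425 genes tested that had a window, these shares were 10.8%, 34.6% and 4.3%. Among all genes tested with a window, both words occurred in 3.65% that fell, 3.71% that rose and 4.64% of the rest. Windows were unevenly missing, being read for 13 of 21 mitotic genes that fell, 8 of 10 that rose and 24 of 26 others. Whether the words differ by direction was not tested. A match describes these letters only, and binding was not measured here.

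In the spindle checkpoint 2 of 5 genes rose and 0 fell, where 29.8% of all genes above the median brightness rose and 25.5% fell. TTK, the MPS1 kinase that starts checkpoint signalling at unattached kinetochores, read 818, 804 and 816 in shPLEKHO1, against 659, 665 and 630 in shNC. All shPLEKHO1 arrays lay above all controls (1.24-fold higher, 0.31 ± 0.05, adjusted p = 0.00165). BUB3, which brings BUB1 and BUBR1 to kinetochores, read 1372, 1402 and 1418 in shPLEKHO1, against 1196, 1129 and 1105 in shNC. By that probe set BUB3 rose (0.29 ± 0.04, adjusted p = 0.00136). Its other 2 probe sets fell, by 0.22 and 0.30 on the log2 scale, and the mean of all 3 was -0.08 (adjusted p = 0.153), so the direction of BUB3 depends on the probe set read. BUB1, the kinase that marks inner centromeres, read 1045, 1027 and 1074 in shPLEKHO1 and 1014, 965 and 931 in shNC. BUB1B, which codes for BUBR1, read 753, 779 and 764 in shPLEKHO1 and 883, 795 and 813 in shNC. Both pairs of groups were separate, BUB1 higher and BUB1B lower, but neither passed (0.10 ± 0.05, adjusted p = 0.183, and -0.12 ± 0.04, adjusted p = 0.0764). MAD2L1, the MAD2 protein that inhibits CDC20, had overlapping groups, with 1835, 1704 and 1815 in shPLEKHO1 and 1628, 1779.5 and 1642 in shNC (0.07 ± 0.06, 95% interval -0.08 to 0.22).

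Centromere and kinetochore genes went both ways, with 3 of 9 up, 3 down and 3 not passing. CENPM, a subunit of the constitutive centromere network, had the largest fall, with 334, 386 and 369 in shPLEKHO1 against 534, 514 and 504 in shNC (-0.52 ± 0.05, adjusted p = 0.000207). CENPE, the kinesin that carries chromosomes to the spindle equator, had the largest rise of all 57 genes. It read 576, 568 and 559.8 in shPLEKHO1, against 427, 432 and 456 in shNC, a separation several times the scatter within a group (1.30-fold higher, 0.38 ± 0.05, adjusted p = 0.00101). CENPF, a large coiled-coil protein of the outer kinetochore, fell (-0.21 ± 0.04, adjusted p = 0.00618; both probe sets). CENPA, the histone H3 variant that marks centromeres, and CENPN, which reads CENPA nucleosomes, did not pass (0.06 ± 0.05, adjusted p = 0.406, and 0.10 ± 0.05, adjusted p = 0.200). Of the 6 CENPN probe sets 1 fell, and the mean of all was at -0.04 (adjusted p = 0.501).

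The 4 subunits of the NDC80 complex, the rod that grips microtubules, gave different results. SPC24 read 253, 307 and 258 in shPLEKHO1, against 377, 311 and 382 in shNC. It fell (-0.38 ± 0.09, adjusted p = 0.0115) in all 5 of its probe sets, with replicate 2 of each group lying close together at 307 and 311. SPC25, with which SPC24 forms the end that faces the chromosome, rose, with 367, 332 and 359 in shPLEKHO1 and 307, 280.3 and 276 in shNC (0.30 ± 0.07, adjusted p = 0.00886). NDC80 itself read 867, 944 and 852 in shPLEKHO1, against 809, 801 and 763 in shNC. Its rise was near the threshold (0.16 ± 0.05, adjusted p = 0.0441) and was lost in 9 of 15 alternative settings, with an adjusted p of 0.136 without shNC replicate 3. NUF2, the partner of NDC80 at the microtubule end, had overlapping groups, with 454, 385 and 431 in shPLEKHO1 and 464, 430.5 and 414 in shNC (-0.05 ± 0.08, 95% interval -0.23 to 0.14).

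In the chromosomal passenger complex, which corrects wrong attachments and later guides cleavage, 1 of 4 genes changed. BIRC5, the small subunit survivin, read 1217, 1286 and 1255 in shPLEKHO1, against 1705, 1587 and 1683 in shNC. The groups were well apart (1.32-fold lower, -0.41 ± 0.05, adjusted p = 0.000284), and 8 of its 12 probe sets fell with 0 rising. AURKB, the kinase of the complex, was at -0.13 ± 0.05 (adjusted p = 0.0929), CDCA8, which codes for borealin, at -0.01 ± 0.05 (0.883) and INCENP, the scaffold, at 0.12 ± 0.06 (0.154). None of these passed, and the INCENP probe set that was not read rose, so the mean of both was at 0.26 (adjusted p = 0.00114). That probe set was dim, with mean intensities of 42.0 in shPLEKHO1 and 31.5 in shNC.

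Spindle genes fell in 4 of 11 cases and rose in 1. HMMR, a microtubule-binding protein of the spindle poles, had the largest fall. It read 1293, 1358 and 1328 in shPLEKHO1, against 2097, 1815 and 1866 in shNC (1.45-fold lower, -0.53 ± 0.05, adjusted p = 0.000112), and all 4 probe sets fell. AURKA, the kinase that builds spindle poles, fell with groups well apart, at 1047, 1068 and 1028 in shPLEKHO1 and 1362, 1278 and 1285 in shNC (-0.32 ± 0.04, adjusted p = 0.000625). TPX2, which activates AURKA, fell too, at 933, 1007 and 933 in shPLEKHO1 and 1214, 1108 and 1084 in shNC (-0.26 ± 0.05, adjusted p = 0.00435). NUSAP1, which bundles spindle microtubules, also fell, at 843, 937 and 869.6 in shPLEKHO1 and 1132, 1028 and 1018 in shNC (-0.27 ± 0.05, adjusted p = 0.00365). PLK4, the kinase that licenses centriole duplication, rose, with 467, 467 and 446 in shPLEKHO1 and 369, 357 and 360.3 in shNC (0.35 ± 0.04, adjusted p = 0.000601), in both of its probe sets.

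The other 6 spindle genes lay between -0.11 and 0.10 and did not pass. They were TACC3 (-0.11 ± 0.06) and CKAP5 (-0.00 ± 0.04), which act together on microtubule growth, the pole protein ASPM (-0.06 ± 0.05), CKAP2 (0.02 ± 0.04), the centrosome kinase NEK2 (0.06 ± 0.05) and the microtubule binder DLGAP5 (0.10 ± 0.06). Of the 6 TACC3 probe sets 2 fell, and their mean was at -0.12 and passed (adjusted p = 0.0411). For CKAP5 the 95% interval ran from -0.10 to 0.10. Of the 7 NEK2 probe sets 1 rose and 1 fell, and the one that fell was dim, with mean intensities of 8.20 in shPLEKHO1 and 9.90 in shNC.

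Of the 3 measured genes of anaphase proteolysis, 2 fell. CDC20, which directs the anaphase-promoting complex to securin and cyclin B, read 1529.6, 1686 and 1496 in shPLEKHO1, against 2319, 2101 and 2147 in shNC. All control arrays lay above all shPLEKHO1 arrays (1.41-fold lower, -0.49 ± 0.05, adjusted p = 0.000283), 2 of 3 probe sets fell, and the mean of the 3 was at -0.31. ESPL1, separase, read 285, 291 and 262 in shPLEKHO1 and 326, 345 and 314 in shNC. Its fall (-0.23 ± 0.06, adjusted p = 0.0265) was lost in 4 of 15 alternative settings, with an adjusted p of 0.0909 without shPLEKHO1 replicate 3. UBE2C, the ubiquitin-conjugating enzyme of the same complex, had overlapping groups, at 3571, 3770.5 and 3662 in shPLEKHO1 and 3572, 3249 and 3369.9 in shNC (0.12 ± 0.05, adjusted p = 0.0772).

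Cytokinesis genes split, with 2 of 5 down and 2 up. PRC1, which bundles the central spindle, read 1676, 1691 and 1702 in shPLEKHO1, against 2370.3, 2302 and 2299.8 in shNC. Both groups were tight and far apart (1.38-fold lower, -0.47 ± 0.04, adjusted p = 0.0001), and all 4 probe sets fell. RACGAP1, the GTPase-activating subunit of centralspindlin, fell as well, with 383, 347 and 405 in shPLEKHO1 and 574, 531 and 495 in shNC (-0.49 ± 0.08, adjusted p = 0.00169; 3 of 3 probe sets). ANLN, the anillin scaffold of the contractile ring, was in the opposite direction. It read 2679.6, 2633 and 2635 in shPLEKHO1, against 2329.8, 2182 and 2152 in shNC (0.25 ± 0.04, adjusted p = 0.00234), and all 4 probe sets rose. ECT2, the exchange factor that RACGAP1 recruits to activate RhoA, rose close to the threshold (0.18 ± 0.06, adjusted p = 0.0471) and was lost in 6 of 15 alternative settings, with an adjusted p of 0.142 without shPLEKHO1 replicate 3. CEP55, which recruits the abscission machinery, was at 0.00 ± 0.05, with a 95% interval from -0.13 to 0.13.

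Most genes of the switch into mitosis did not pass. CDK1 read 2253, 2353 and 2245 in shPLEKHO1 and 2519, 2313 and 2279 in shNC, with overlapping groups (-0.06 ± 0.05, 95% interval -0.17 to 0.05). Among the CDK1 probe sets 1 fell when tested alone, and averaging all 3 gave -0.14, which passed (adjusted p = 0.0299). The probe set that fell was dim, with mean intensities of 56.4 in shPLEKHO1 and 74.2 in shNC. The remaining, brighter one was at 0.01 and did not pass. Its main partner cyclin B1, CCNB1, overlapped too, at 998, 1069 and 1046 in shPLEKHO1 and 1104, 1074 and 1048 in shNC (-0.07 ± 0.04, 95% interval -0.17 to 0.04). The other cyclins changed, in opposite directions. CCNA2, the cyclin A of S phase and G2, rose, with 1076, 1142 and 1084 in shPLEKHO1 and 971, 867 and 888 in shNC (0.26 ± 0.05, adjusted p = 0.0031), while its other probe set did not pass and the mean of both was at 0.17. CCNB2 fell, with 902, 936 and 894 in shPLEKHO1 and 1144, 999.7 and 1059.7 in shNC (-0.24 ± 0.05, adjusted p = 0.00615). WEE1, the kinase that holds CDK1 inactive, fell further, with 660.3, 648 and 638 in shPLEKHO1 and 838, 834 and 824 in shNC (-0.36 ± 0.05, adjusted p = 0.000632), and its groups were tight.

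PKMYT1, the other inhibitory kinase of CDK1, was at -0.16 ± 0.09 (adjusted p = 0.241) by its brightest probe set. Of its 6 probe sets 3 fell, and their mean was at -0.22 (adjusted p = 0.0116). The phosphatases that activate CDK1, CDC25B (0.13 ± 0.06, adjusted p = 0.122, but 0.0396 by the mean of its 5 probe sets, at 0.11) and CDC25C (-0.05 ± 0.05, 0.498), did not pass, nor did the mitotic kinase PLK1 (0.03 ± 0.05, 0.685) and CDCA3 (0.06 ± 0.06, 0.487), an adaptor for the degradation of WEE1 known from Xenopus. Both transcription factors of the list fell. FOXM1 read 114.5, 134 and 131 in shPLEKHO1, against 172.5, 178 and 175 in shNC (1.38-fold lower, -0.46 ± 0.07, adjusted p = 0.00108). Its other 2 probe sets did not pass, and the mean of the 3 was at -0.25. MYBL2, the B-MYB protein that joins the MuvB complex in S phase, read 280.3, 286 and 261 in shPLEKHO1, against 349, 349 and 358 in shNC (-0.34 ± 0.05, adjusted p = 0.00141). In both genes the groups were clearly apart.

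**Figure D3:**
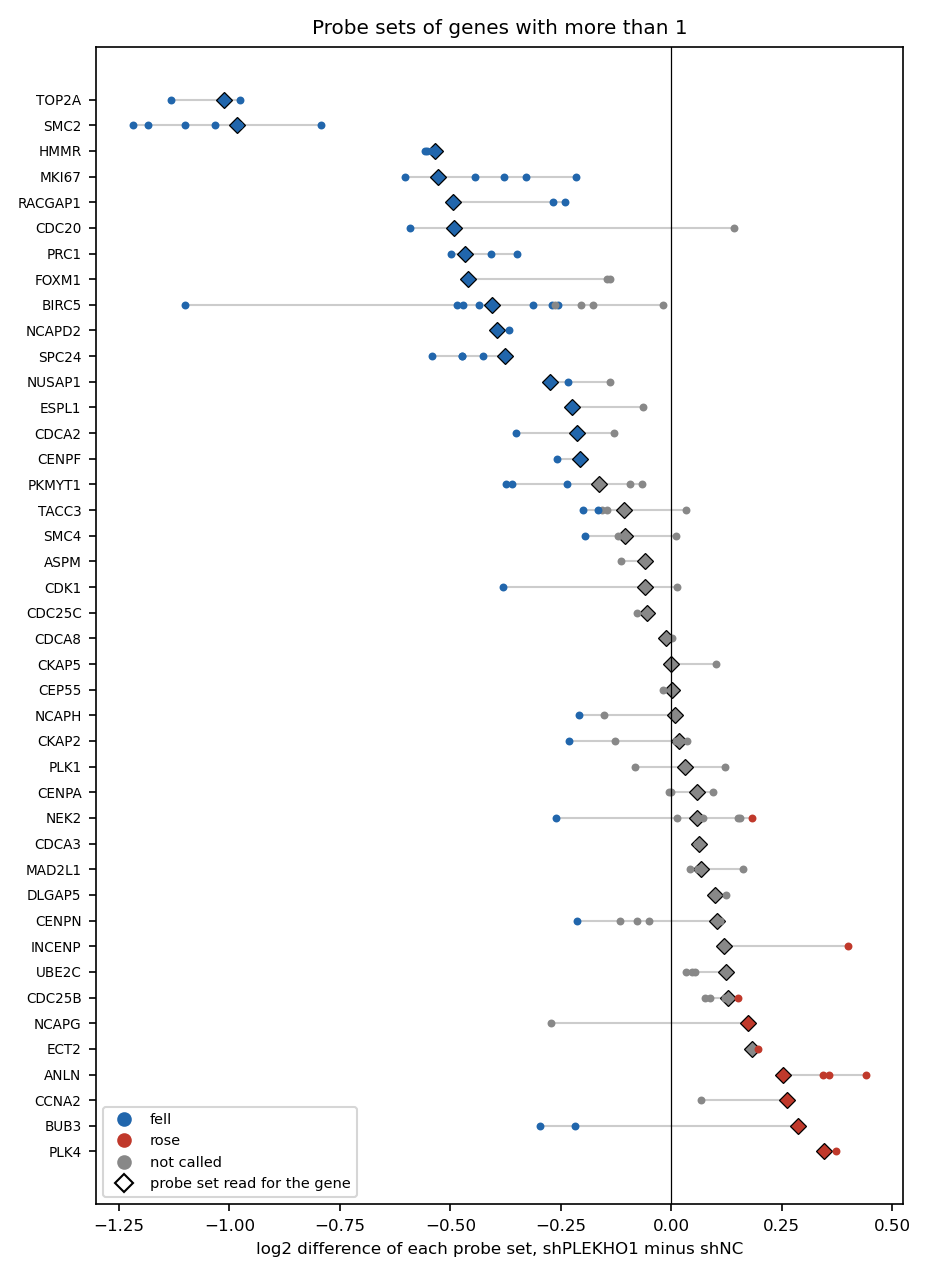
Log2 difference of every probe set (horizontal axis, shPLEKHO1 minus shNC) for the 42 genes with more than 1 probe set, ordered by the probe set read for the gene (diamonds with black edges). Colours give calls with adjustment over all probe sets, blue for fell, red for rose and grey for neither. All probe sets lie on the left for TOP2A, SMC2, HMMR and MKI67, while those of BUB3 lie on both sides.

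Probe sets of 1 gene seldom had opposite calls, but often not all of them passed. The 57 genes had 168 probe sets, of which 71 fell, 16 rose and 81 did not pass when each was tested on its own. Genes with many probe sets weigh more in these counts. BIRC5 gave 8 of the falls, SMC2 7 and MKI67 6, and ANLN gave 4 of the rises. By gene, 36.8% fell and 17.5% rose. Shares over all probe sets of the array are not given here, so these counts describe the probe sets only. In 42 genes with more than 1 probe set, every probe set fell in 9 and every one rose in 2, and only BUB3 and NEK2 had calls in both directions. Of the 21 genes with several probe sets that changed, 18 also changed in the same direction by the mean of their probe sets, and BUB3, NCAPG and ESPL1 did not pass. For 17 of the 57 genes the probe set read carries the suffix s or x, which Affymetrix gives where probes can match transcripts of other genes, and cross-hybridisation was not tested.

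A further list held 121 genes of mitosis outside the 58, of which 119 were tested. Of these, 37 fell and 29 rose (31.1% and 24.4%), with a median log2 difference of 0.02. Among all genes tested 16% fell and 18.1% rose, and among genes above the median brightness 25.5% fell and 29.8% rose. Of the 119 genes, 112 lay above that median, and the 55.5% that changed were near the 55.3% of such bright genes. Counts of the smaller lists below are to be read beside these shares. Cohesin and its regulators, 13 genes, are shown on their own in the bar plot, a choice made after their values were seen. Falls numbered 7 and rises 3 in cohesin, and the median was -0.34. SMC1A, a core ATPase of cohesin, read 169, 179.7 and 173 in shPLEKHO1, against 608, 587 and 602 in shNC (3.41-fold lower, -1.77 ± 0.04, adjusted p = 6.84e-07). Of its 5 probe sets 4 fell, and their mean was at -0.89. The core subunits SMC3 (-0.65 ± 0.05) and RAD21 (-0.75 ± 0.06) also fell, in all of their probe sets. Cohesin subunits did not all fall, since STAG2 rose (0.17 ± 0.05, adjusted p = 0.0266) in 3 of 4 probe sets. STAG1 did not pass as read (0.10 ± 0.05), but the mean of its 3 probe sets, at 0.44, did (adjusted p = 0.000147). CDCA5, sororin, which keeps cohesin on chromatin, fell (-1.07 ± 0.05), as did the cohesin acetyltransferase ESCO2 (-0.76 ± 0.06), by 1 of its 2 probe sets, whose mean was at -0.39. WAPL, which releases cohesin, rose as read (0.64 ± 0.05), though its 5 probe sets held 2 rises and 2 falls and their mean was at 0.08 (adjusted p = 0.14).

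**Figure D4:**
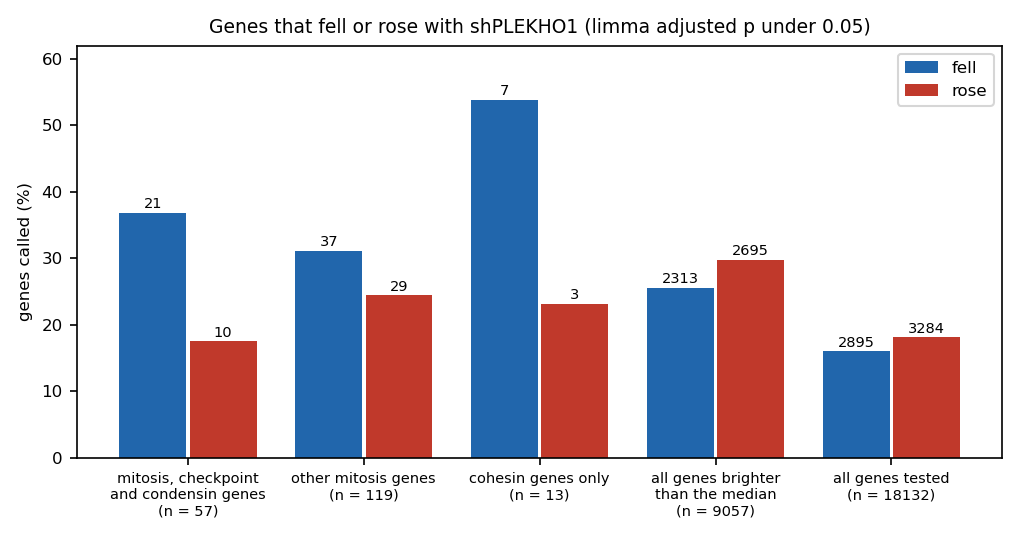
Share of genes (vertical axis, percent) that fell (blue) or rose (red) with shPLEKHO1 at a limma adjusted p under 0.05, in the 57 mitotic genes, the 119 other mitosis genes, their 13 cohesin genes, all genes brighter than the median and all genes tested. Numbers above the bars are gene counts. The mitotic genes fell in 36.8% of cases, all genes brighter than the median in 25.5%, and all genes in 16%.

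Among the other kinetochore and centromere genes, 12 of 29 fell and 6 rose. CENPQ (0.81 ± 0.06) rose most, while CENPU (-0.69 ± 0.05), which belongs to the same inner kinetochore subcomplex, and DSN1 (-0.59 ± 0.07), of the MIS12 complex, fell. Of 17 other checkpoint and entry genes, 5 rose and 2 fell, and HASPIN (0.38 ± 0.06), the histone H3 kinase of centromeres, and TRIP13 (0.31 ± 0.05), the ATPase that recycles MAD2, were among the rises. ARPP19, an inhibitor of the phosphatase PP2A, fell by its brightest probe set (-0.69 ± 0.05), but its other 2 rose and the mean of the 3 was at 0.08. Of 38 spindle and centrosome genes, 13 rose and 9 fell. The augmin subunit HAUS6 (0.76 ± 0.05) and MAPRE1 (0.66 ± 0.05), the plus-end protein EB1, rose, and the kinase NEK9 (-0.72 ± 0.06) fell. By the mean of their probe sets HAUS6, with 2 of 4 that rose, was at 0.40 and NEK9, with 2 of 3 that fell, at -0.37. In cytokinesis 1 of 10 genes rose and 2 fell, with DEPDC1 at 0.61 ± 0.05, citron kinase CIT at -0.59 ± 0.05, and CHMP4B at -0.26 ± 0.05. Only 1 of 2 CIT probe sets fell, with a mean of both at -0.34, and the other CHMP4B probe set rose.

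MuvB and DREAM genes, whose products together repress cell cycle promoters in quiescence, fell in 4 of 9 cases and rose in 1. RBL2, which codes for the pocket protein p130, was 2.63-fold lower, and TFDP1, the DP1 partner of E2F, fell by 0.66 on the log2 scale. The RBL2 intensities were 142, 124 and 123 in shPLEKHO1, against 381, 349 and 303 in shNC, and all 4 probe sets fell (-1.39 ± 0.09, adjusted p = 2.05e-05). LIN9, a core MuvB subunit, rose (0.44 ± 0.05, adjusted p = 0.00021) in 2 of 3 probe sets, whose mean was at 0.27.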

How the data were processed

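RNA of 786-O cells was hybridised to 6 single-colour arrays, 3 labelled shPLEKHO1 and 3 labelled shNC. Total RNA was extracted with Trizol and made into biotin-labelled cRNA, per the labels' protocols. The submitters' processing notes name Affymetrix Expression Console as the authors' software. Its version and settings, including whether arrays were normalized, are not stated there. The deposited values are linear intensities, from 4.33 to 19770 over all probe sets. Of 49395 probe sets, 44988 had 1 gene symbol and were no controls. Symbols came from the platform annotation, updated through Entrez identifiers with RefSeq (GRCh38.p14), where 44961 matched. Where a gene had several probe sets, the one brightest on average was used.

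Intensities were taken as log2(intensity + 1), quantile normalized over all probe sets and compared by limma 3.58.1 (lmFit, eBayes; R 4.3.3) with group as the only term. P-values of 18132 genes were adjusted by the Benjamini-Hochberg method, and 0.05 was the threshold (4 residual and 3.63 prior degrees of freedom). Overlap of groups was read from the deposited intensities. The pseudocount and background understate changes of dim genes. The steps were tested on simulated data.

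The genes and lists were chosen with earlier results of these data known. By rule, the text names all spindle checkpoint and condensin group genes, in each other group up to 4 changed genes with the largest difference and up to 2 unchanged by the test with the highest mean, any with a difference of at least 0.5, and up to 3 changed genes of each further list. The rest of the 57 genes were added so that all are accounted for. NCAPD3, NCAPH2, SMC3, RAD21, STAG1, STAG2 and WAPL were chosen after their values were seen. Alternatives are given in the closing section.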

Additional observations from a re-analysis of the deposited data

How the results depend on the processing

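Over 15 alternatives, 26 of the 31 mitotic genes that changed kept their call in each, 20 that fell and 6 that rose, and the exceptions were NDC80, ECT2, NCAPG, ESPL1 and BUB3. The number that fell ranged from 20 to 25 and the number that rose from 7 to 13, and PLEKHO1 passed in all 15. Leaving out 1 array at a time gave 20 to 21 falls and 7 to 9 rises in the mitotic genes, 33 to 36 falls and 23 to 27 rises in the other mitosis genes, 2460 to 2661 falls and 2767 to 3040 rises in all genes, and a PLEKHO1 log2 difference of -0.366 to -0.254. No count of calls moved by over 1.5 times in these alternatives. Of the 26 mitotic genes that did not pass, 11 passed in at least 1 alternative.

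Among genes that had changed, the mean of all probe sets turned the sign of 2 mitotic genes (BUB3 and NCAPG) and of 6 of the other mitosis genes (KNL1, CENPI, ARPP19, CLASP2, CHMP4B and PDS5B). The other alternatives were run for single genes only in PLEKHO1, the 57 and the further genes named by rule. With the mean of all probe sets, log2 differences were -0.0767 for BUB3, -0.0403 for CENPN, -0.059 for CKAP2, 0.0502 for CKAP5, -0.00822 for CEP55, -0.0489 for NCAPG, -0.117 for NCAPH (adjusted p = 0.035), 0.0813 for ARPP19 and 0.0531 for CHMP4B. With median centring CDCA8 was at 0.0056 and CKAP5 at 0.0136. Without normalization CKAP5 was at 0.0041 and CEP55 at -0.00552, and with array weights CKAP5 at 0.00884, CEP55 at -0.0186. Leaving out 1 array at a time gave -0.11 to 0.0383 for NUF2, -0.0363 to 0.00377 for CDCA8, -0.0131 to 0.0167 for CKAP5, -0.046 to 0.0279 for CEP55 and -0.00644 to 0.0216 for NCAPH. The cause was not tested, except that the mean over probe sets takes in those of other differences.

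Replicate numbers are shared between groups in the labels but did not pair the arrays, since same-numbered arrays' deviations correlated at -0.163, -0.156 and -0.0469, and 0 of 3 shPLEKHO1 arrays correlated best with their own number. With the replicate block, 21 mitotic genes fell and 7 rose. The number of arrays limits the precision.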
